A study of Homo sapiens with 4 samples.

Results

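The 10 genes described here are regulators and direct targets of the KEAP1-NRF2 oxidative stress response in A549 cells, a human epithelial line from a lung carcinoma. They were taken by symbol from the table of counts per gene: NFE2L2, KEAP1, MAFG, NQO1, SRXN1, OSGIN1, HMOX1, FTL, FTH1 and ABCC2. All 10 were among the 23340 genes of the table, and all 10 were among the 13143 genes with enough reads for a test. Poly-A+ RNA was sequenced from 4 libraries. NOCT-KO clone 4 and NOCT-KO clone 5 are labelled as knockouts of NOCT, which encodes nocturnin, a phosphatase that acts on NADP(H). WT 1 and WT 2 are WT A549 cells. The comparison asks which transcripts differ between the libraries labelled NOCT-KO and those labelled WT.

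Each clone grew from a single cell, by limiting dilution, after delivery of Cas9 by the lentiviral vector pLenti-CRISPRv2 and selection with puromycin. No source used here tells if WT cells were handled in the same way, so knockout, viral delivery, selection and cloning cannot be told apart. Every library, WT included, comes from A549 cells with mutant KEAP1, a feature of the line. Each clone is 1 library, and nothing in the labels marks WT 1 and WT 2 as separate cultures. The p-values therefore measure only the spread between these libraries. Between WT 1 and WT 2 that spread may be technical. In the comparison of both clones with WT it also holds the difference between the clones. In bulk RNA, fewer cells with a transcript and less of it per cell cannot be told apart.

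NRF2, the product of NFE2L2, is a transcription factor that KEAP1 delivers to a CUL3 ubiquitin ligase for destruction. Oxidants and electrophiles modify KEAP1, NRF2 then accumulates, pairs with a small MAF protein such as MAFG, and binds antioxidant response elements near genes for detoxification, thiol reduction, iron storage and drug efflux. In A549 cells the mutant KEAP1 holds NRF2 poorly, and the pathway is known to be active without any added stress. NADPH, a substrate of nocturnin, is also the reductant that NQO1 can use and on which thioredoxin and glutathione recycling depend.

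The antioxidant response element has a core of TGAC and GCA with any 3 bases between them, and it was searched on both strands of hg19 to show what the members carry besides their names. The window ran from 10000 bases before to 1000 bases after the start of each gene's canonical transcript, for 18604 protein-coding genes. The core was present in 9 of the 10 members, with 27 matches in all, and in 73.6% of all genes, so its presence says little about any member. ABCC2 was the member without a match in this window. A core whose first 7 letters are the AP-1 motif TGACTCA was rarer: 4.1% of all genes held it, and so did 5 of the 10 members. The members were chosen as known NRF2 targets, so this count is a description and not independent evidence.

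The 6 matches that hold the AP-1 motif are printed here because they lie near MAFG, NQO1, HMOX1, FTL and FTH1. Each sequence is 40 bases of hg19, read 5′ to 3′ on the strand of its gene, and the capitals mark the core, in either orientation.
MAFG (chr17:79884828-79884867, minus strand): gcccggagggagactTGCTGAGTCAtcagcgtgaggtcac
NQO1 (chr16:69760894-69760933, minus strand): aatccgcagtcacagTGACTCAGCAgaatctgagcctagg
HMOX1 (chr22:35767996-35768035, plus strand): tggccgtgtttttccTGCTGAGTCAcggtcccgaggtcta
HMOX1 (chr22:35773133-35773172, plus strand): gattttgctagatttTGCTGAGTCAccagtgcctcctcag
FTL (chr19:49467184-49467223, plus strand): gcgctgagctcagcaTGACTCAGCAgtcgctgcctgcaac
FTH1 (chr11:61739500-61739539, minus strand): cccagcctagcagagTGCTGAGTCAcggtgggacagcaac

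The core began 455 bases before the start of NQO1, 1367 bases before that of FTL and 4418 bases before that of FTH1. The 2 copies at HMOX1 lay 9078 and 3941 bases before its start, and 0.134% of all genes had as many copies of this form. At MAFG the core lay 759 bases after the start. In a narrower window of 1000 bases before to 200 after the start, NQO1 was the 1 member with a match to the core, against 10.6% of all genes. A match is a run of letters and not a binding site. The genes with this form did not move together in the data that follow. Over WT, NQO1 passed a test in both clones, in opposite directions, and FTL passed in clone 5. MAFG, HMOX1 and FTH1 did not pass. SRXN1, with 0 matches of this form in the wider window, also passed, in clone 4 over WT.

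Reads assigned to genes ranged from 36873556 to 41963070 counts per library. Nearly every nonzero count was even (99.1% to 99.2%), and counts divided by 2 for this reason gave the same calls for the members. The sources used here do not tell if both mates of a read pair were counted, so the number of sequenced fragments may be lower than the counts printed here. The clones differed more from each other than the WT libraries did, with an SD of the log2 ratio over 10048 genes of 0.549 for clone 4 over clone 5 and 0.176 for WT 1 over WT 2. NOCT itself, listed under its older symbol CCRN4L (chr4:139936935-139967093), had 29.3 CPM in clone 4 and 15.6 CPM in clone 5, against 20.8 and 20.1 CPM in WT 1 and WT 2, where CPM are counts scaled to library size by TMM. Clone 4 was above both WT libraries and clone 5 below both. The NOCT transcript was higher in clone 4 over WT (log2 fold 0.52, adjusted p = 0.0293, edgeR) and in clone 4 over clone 5 (0.91, adjusted p = 0.00223), and it did not pass in clone 5 over WT (-0.39, adjusted p = 0.208). For clone 4 this goes against what a loss of the transcript would give. Cas9 need not lower the transcript it cuts, so these levels check neither the knockout nor the labels, and clone 4 and clone 5 stand throughout for the libraries labelled so. Of 5 epithelial markers KRT8 and KRT18 were the abundant ones. The summed level of the 5 was 2583 CPM in clone 4, 1498 in clone 5, 1669 in WT 1 and 1863 in WT 2. KRT19 was at 0 in every library, and EPCAM was at most 0.166 CPM. CDH1 had 11.2 CPM in clone 4 and 15.8 in clone 5, against 16.4 in WT 1 and 18.4 in WT 2. Its log2 fold in clone 4 over WT was -0.63, where KRT8 stood at 0.64 and KRT18 at 0.47. CDH1 and, of the next list, ABCA3 lie on chromosome 16. The tested genes of that chromosome other than NQO1 had a median log2 fold of -0.44 in clone 4 over WT. Their median was 0.14 in clone 5 over WT. The alveolar type II markers SFTPB, SFTPC and SFTPA1 were at 0 in all 4 libraries, while ABCA3, the fourth of that list, had 42.6 CPM in clone 4 and 92.1 in clone 5, against 50.3 in WT 1 and 58.2 in WT 2, and was higher in clone 5 over WT (log2 fold 0.76, adjusted p = 0.00139, edgeR). Leukocyte markers summed to at most 0.499 CPM and endothelial markers to at most 0.144 CPM. Fibroblast markers summed to 13.5 CPM in clone 4, 22.2 in clone 5, 44.3 in WT 1 and 40.4 in WT 2. Over WT, KRT8, KRT18 and ABCA3 had log2 folds of opposite sign in the clones, while the fibroblast sum was lower in both. KRT18 passed the test in both clones, KRT8 and CDH1 in clone 4 alone and ABCA3 in clone 5 alone. The part of these marker levels in the results was not tested.

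Per kilobase of transcript, the members covered a wide range of levels. FTL averaged 11289 CPM per kb in NOCT-KO and 9459 in WT, the highest WT level of the 12340 tested genes with a transcript length. NQO1 averaged 648 CPM per kb in NOCT-KO and 612 in WT, which was rank 33. SRXN1 averaged 398 CPM per kb in NOCT-KO and 331 in WT, rank 79. The redox and iron storage targets thus held the top of the list, above the efflux pump ABCC2, with 149 CPM per kb in NOCT-KO and 152 in WT, rank 289. FTH1 lay between SRXN1 and ABCC2, at 228 CPM per kb in NOCT-KO and 233 in WT, rank 146. The regulators lay below all of these. NFE2L2 averaged 58.1 CPM per kb in NOCT-KO and 57.8 in WT, KEAP1 40.3 in NOCT-KO and 38.9 in WT, and MAFG 37.5 in NOCT-KO and 34.9 in WT. OSGIN1 with 11 CPM per kb in NOCT-KO and 10.7 in WT, and HMOX1 with 4.2 in NOCT-KO and 4.58 in WT, were the lowest.

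Neighbours in this order were apart in every library except for NQO1 and SRXN1, and for KEAP1 and MAFG. NQO1 ranged from 451 to 844 CPM per kb and SRXN1 from 321 to 469, and only in clone 4 was SRXN1 above NQO1. KEAP1 ranged from 34.7 to 43.0 CPM per kb and MAFG from 34.9 to 37.8, so their order is not resolved.

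**Figure D1:**
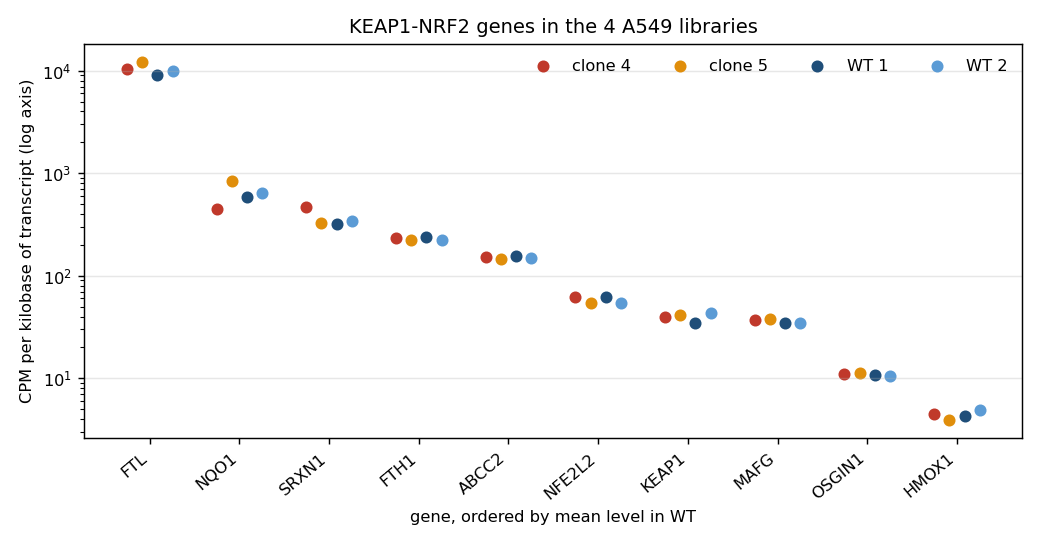
Level of each of the 10 genes in the 4 libraries, in CPM per kilobase of canonical transcript on a log axis, with 1 point per library and genes ordered by their WT mean. FTL lies near 10000 and HMOX1 near 4 in every library, and NQO1 is the gene whose clone 4 and clone 5 points are farthest apart.

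With both clones as 1 group against the 2 WT libraries, no member passed the threshold of an adjusted p of 0.05. In the edgeR quasi-likelihood test, Benjamini-Hochberg adjusted, 0 of the 10 members and 0.0% of the 13143 genes were called. At an unadjusted p under 0.05 the counts were 0 of the 10 members and 553 of all genes (4.21%), DESeq2 called 42 genes with 0 members among them, and limma-voom called 0. The log2 fold change of NOCT-KO over WT was above 0 for 7 members and below 0 for 3, with a median of 0.0502 beside 0.000271 over all genes tested. Both clones lay above both WT libraries for 3 of the 10 members (MAFG, OSGIN1 and FTL), beside 16.4% of all genes, and below them for 0, beside 17.9%. The intervals leave room for sizeable differences in NQO1 (log2 fold 0.08, 95% interval -0.63 to 0.80) and SRXN1 (0.27, -0.18 to 0.71), the members on which the clones differed most. Without the clone 4 library NQO1 had a log2 fold of 0.47 and FTL of 0.37. Without the clone 5 library SRXN1 had a log2 fold of 0.51 and NQO1 of -0.43. Each of these fits set 1 clone against WT, so they repeat the comparisons of single clones given below. A design of 2 libraries against 2 allows an exact permutation p of at least 0.333 for a single gene.

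Taken 1 clone at a time, 3 target genes changed: NQO1, SRXN1 and FTL. In clone 4 over WT, 2 of the 10 members were called, SRXN1 higher and NQO1 lower, where 11.4% of all genes were called (5.41% higher, 6.02% lower). In clone 5 over WT, 2 of the 10 were called, NQO1 and FTL, both higher, where 3.51% of all genes were called (1.78% higher, 1.73% lower). Between the clones, clone 4 over clone 5, 3 of the 10 were called, SRXN1 higher and NQO1 and FTL lower, where 13.1% of all genes were called (5.73% higher, 7.38% lower). The median log2 fold of the 10 members was 0.025 in clone 4 over WT (all genes -0.0113), 0.0266 in clone 5 over WT (all genes -0.00442) and 0.0117 in clone 4 over clone 5 (all genes -0.000694). The 2 comparisons with WT share the WT libraries. A clone has 1 library, so these tests borrow the spread of WT 1 and WT 2 and assume that a clone would vary as WT does.

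**Figure D2:**
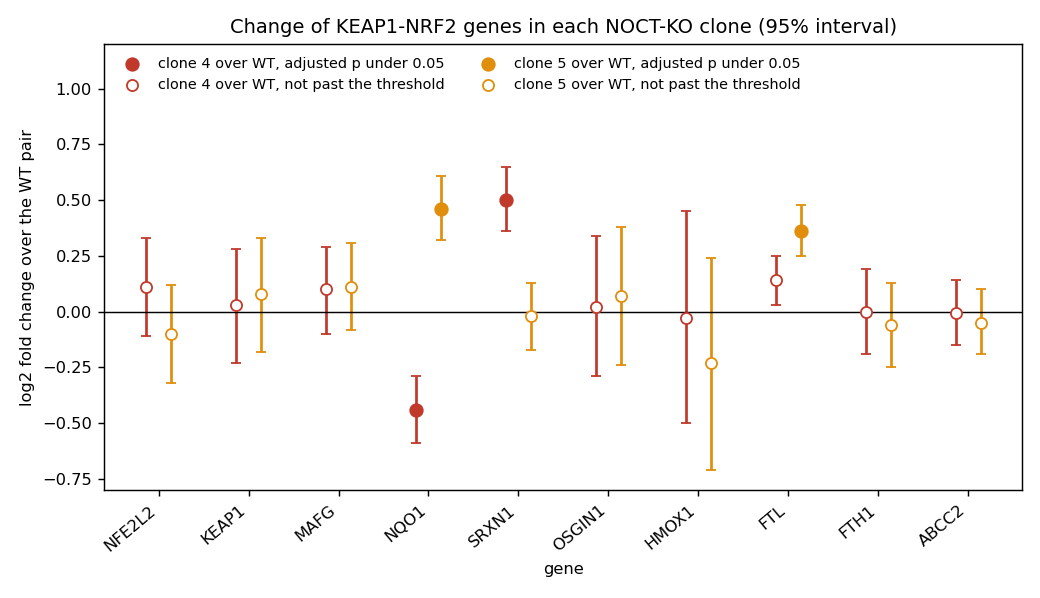
Log2 fold change over the WT pair for each of the 10 genes in clone 4 and in clone 5, with 95% intervals from edgeR; filled points have an adjusted p under 0.05. The NQO1 points lie on opposite sides of 0, at -0.44 in clone 4 and 0.46 in clone 5, while SRXN1 is filled for clone 4 alone and FTL for clone 5 alone.

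No gene of the regulatory core passed the test in either clone. NFE2L2 (chr2:178083395-178257484, minus strand), which encodes NRF2, had 152 CPM in clone 4 and 132 in clone 5, against 150.2 in WT 1 and 133 in WT 2. The 2 clones spanned nearly the same interval as the 2 WT libraries. Its log2 fold was 0.11 in clone 4 over WT (95% interval -0.11 to 0.33) and -0.10 in clone 5 over WT (-0.32 to 0.12). NRF2 is regulated mainly through the stability of the protein, which RNA counts do not measure.

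KEAP1 (chr19:10596801-10614234, minus strand), the adaptor that targets NRF2 for degradation, had 102 CPM in clone 4 and 105 in clone 5, against 89.0 in WT 1 and 110.4 in WT 2. Both clones lay inside the WT interval, and the log2 fold was 0.03 in clone 4 over WT (95% interval -0.23 to 0.28) and 0.08 in clone 5 over WT (-0.18 to 0.33). MAFG (chr17:79876146-79885611, minus strand), a small MAF protein that binds DNA with NRF2 and is itself an NRF2 target, had 189 CPM in clone 4 and 191 in clone 5, against 176 in WT 1 and 177 in WT 2. MAFG was thus higher in both clones than in both WT libraries, without passing the test: the log2 fold was 0.10 in clone 4 (adjusted p = 0.579) and 0.11 in clone 5 (adjusted p = 0.61) by the edgeR quasi-likelihood test, Benjamini-Hochberg adjusted.

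NQO1 (chr16:69740899-69760571, minus strand), the NAD(P)H quinone reductase that is widely used as a readout of NRF2 activity, changed in opposite directions in the clones. It had 1138 CPM in clone 4 and 2127 CPM in clone 5, against 1469.6 in WT 1 and 1616 in WT 2, from 41032 and 88486 counts in the clones and 61990 and 67180 counts in WT. Clone 4 was below both WT libraries and clone 5 above both. In clone 4 the log2 fold over WT was -0.44 (standard error, SE, 0.0706, adjusted p = 0.000889), and in clone 5 it was 0.46 (SE 0.0682, adjusted p = 0.00138), by the edgeR quasi-likelihood test, Benjamini-Hochberg adjusted. Clone 4 over clone 5 had a log2 fold of -0.90 (SE 0.0806, adjusted p = 3.49e-06, edgeR). With no filter on low counts, when 15805 genes were tested, the adjusted p was 0.067 in clone 4 and 0.155 in clone 5, so both calls over WT were lost there.

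In clone 4, NQO1 stood at the level of its chromosome. The 579 other tested genes of chromosome 16 had a median log2 fold of -0.44 in clone 4 over WT and 0.14 in clone 5 over WT, beside -0.0113 and -0.00442 over all genes tested. Among the 121 tested genes within 10 Mb of NQO1, 112 were below 0 in clone 4 and 46 were called lower against 1 called higher. Their median was -0.38 in clone 4, so NQO1 stood 0.06 below its neighbours there. In clone 5 their median was 0.17, with 3 genes called higher and 1 lower, and NQO1 stood 0.29 above it. Of the neighbours, 92.6% had a lower log2 fold than NQO1 in clone 5. In clone 4 over clone 5 the neighbours had a median of -0.56 and NQO1 stood 0.34 below it. DNA copy number was not measured in these files, and the part of the chromosome in the NQO1 values was not tested.

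**Figure D3:**
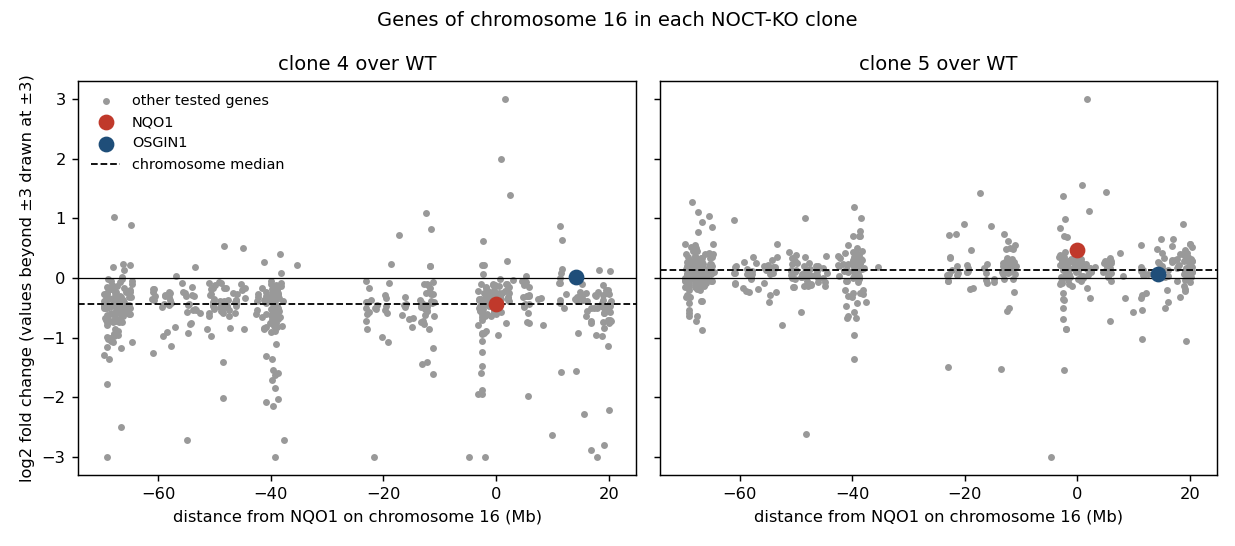
Log2 fold change over WT of the tested genes of chromosome 16 by distance from NQO1 in megabases, clone 4 on the left and clone 5 on the right, with values beyond 3 drawn at the edge. The dashed median is -0.44 in clone 4 and 0.14 in clone 5, NQO1 lies on that line in clone 4, and OSGIN1 lies near 0 in both.

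SRXN1 (chr20:627259-633844, minus strand), sulfiredoxin, restores peroxiredoxins that peroxide has over-oxidized. It had 1185 CPM in clone 4 and 825 CPM in clone 5, against 812 in WT 1 and 860.5 in WT 2. Clone 4 stood above the other 3 libraries, and clone 5 lay between the WT libraries. The log2 fold was 0.50 in clone 4 over WT (SE 0.0681, adjusted p = 0.000215) and -0.02 in clone 5 over WT (95% interval -0.17 to 0.13, adjusted p = 0.932), by the edgeR quasi-likelihood test, Benjamini-Hochberg adjusted. Clone 4 over clone 5 had a log2 fold of 0.52 (SE 0.0802, adjusted p = 0.000527, edgeR). Its 65 tested neighbours within 10 Mb on chromosome 20 had a median of -0.01 in clone 4, 0.51 below SRXN1. SRXN1 and NQO1 therefore moved in opposite directions in clone 4.

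OSGIN1 (chr16:83964916-83999937, plus strand), an oxidative stress induced growth inhibitor, had 20.9 CPM in clone 4 and 21.6 in clone 5, against 20.7 in WT 1 and 20.4 in WT 2. Its clone values were both just above WT, with a log2 fold of 0.02 in clone 4 (95% interval -0.29 to 0.34) and 0.07 in clone 5 (-0.24 to 0.38). It lies on the same chromosome as NQO1, and its 98 tested neighbours within 10 Mb had a median log2 fold of -0.43 in clone 4, with 31 called lower. OSGIN1 stood 0.45 above that median, and 92.9% of its neighbours were lower than it. In clone 5 its neighbours had a median of 0.17, and OSGIN1 stood 0.10 below it. Exons of OSGIN1 overlap those of MLYCD on the same strand in the annotation, so a share of reads may be ambiguous between them.

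HMOX1 (chr22:35776354-35790207, plus strand), heme oxygenase 1, frees iron from heme and is repressed by BACH1 at the same elements that NRF2 binds. It had 6.99 CPM in clone 4 and 6.06 in clone 5, against 6.59 in WT 1 and 7.65 in WT 2, from 252 counts in each clone and 278 and 318 counts in WT. The libraries overlapped, and the log2 fold was -0.03 in clone 4 (95% interval -0.50 to 0.45) and -0.23 in clone 5 (-0.71 to 0.24). With these few counts the intervals are the widest of the 10 genes, reaching from -0.71 to 0.45 over both clones. HMOX1 carried 2 of the 6 sequences shown above and had the lowest level of all members.

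Of the 2 ferritin chains, FTL had the higher counts and alone was called, in clone 5 over WT and between the clones. FTL (chr19:49468566-49470136, plus strand), the light chain that promotes formation of the iron core, had 9065 CPM in clone 4 and 10600.2 CPM in clone 5, against 7926 in WT 1 and 8550.4 in WT 2. Both clones were above both WT libraries, with clone 5 the highest. The log2 fold was 0.14 in clone 4 over WT (SE 0.0525, adjusted p = 0.117) and 0.36 in clone 5 over WT (SE 0.0521, adjusted p = 0.00108), by the edgeR quasi-likelihood test, Benjamini-Hochberg adjusted. Clone 4 over clone 5 had a log2 fold of -0.23 (SE 0.0609, adjusted p = 0.0242, edgeR), a call that was lost under 4 alternatives, with adjusted p between 0.0574 and 0.253. The call in clone 5 was lost with no filter on low counts (adjusted p = 0.152, edgeR). Its 368 tested neighbours within 10 Mb on chromosome 19 had a median of 0.01 in clone 5, 0.35 below FTL.

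FTH1 (chr11:61727190-61735106, minus strand), the heavy chain with the ferroxidase activity, had 279.6 CPM in clone 4 and 269 in clone 5, against 289.6 in WT 1 and 270 in WT 2. The libraries overlapped, with a log2 fold of -0.00113 in clone 4 (95% interval -0.19 to 0.19) and -0.06 in clone 5 (-0.25 to 0.13). The annotation lists 16 pseudogenes of FTL and 25 of FTH1. No source used here tells how reads that fit both a ferritin gene and its copies were handled, so the levels of both chains, and their ratio, are uncertain.

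ABCC2 (chr10:101542397-101612351, plus strand), the pump MRP2 that exports glutathione and glucuronide conjugates, had 879 CPM in clone 4 and 854 in clone 5, against 892 in WT 1 and 872 in WT 2. The values overlapped. The log2 fold was -0.0053 in clone 4 (95% interval -0.15 to 0.14) and -0.05 in clone 5 (-0.19 to 0.10). The limits of these intervals are smaller in size than the called changes of NQO1, SRXN1 and FTL over WT. The intervals rest on the spread of WT 1 and WT 2, so variation between cultures of a clone is not in them.

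Other genes of the pathway were described by lists, counted beside the shares of all genes given above. The 4 lists of further NRF2 targets, for glutathione and thioredoxin, NADPH supply, reductases and conjugation, and other functions, held 41 genes, of which 38 were tested. In clone 4 over WT, 10 of the 38 were called higher, beside 5.41% of all genes, and 3 lower, beside 6.02%, with a median log2 fold of 0.0568. In clone 5 over WT, 0 were called higher, beside 1.78% of all genes, and 2 lower, beside 1.73%, with a median of -0.0656. In clone 4 over clone 5 there were 9 higher, beside 5.73% of all genes, and 2 lower, beside 7.38%. There were 0 in either direction in NOCT-KO over WT, beside 0.0% of all genes. Most calls among these targets over WT were in clone 4, with more higher than lower. Over all genes, too, calls were more frequent in clone 4 over WT than in clone 5 over WT. The lists were chosen with earlier results of these data known and were not tested, so the counts are a description.

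**Figure D4:**
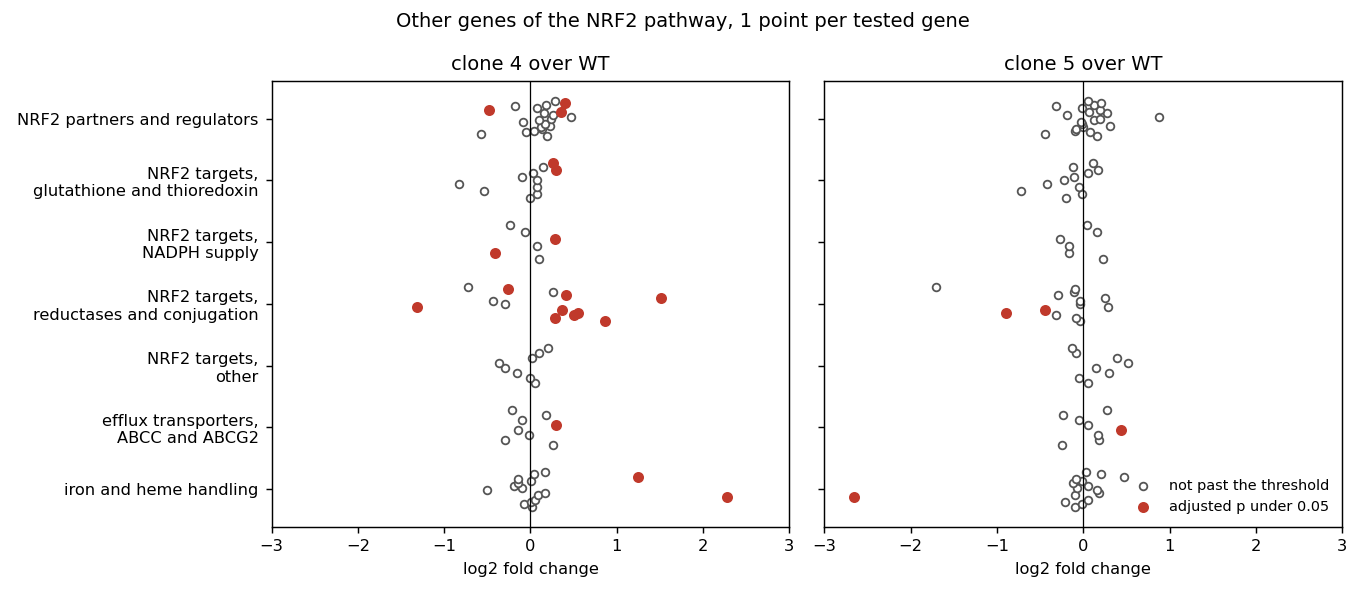
Log2 fold change over WT of the tested genes of 7 lists, clone 4 on the left and clone 5 on the right, with 1 point per gene and filled points where the adjusted p from edgeR is under 0.05. Reductase and conjugation genes are filled on both sides of 0 in clone 4, and CP in the iron and heme list lies at 2.28 in clone 4 and -2.66 in clone 5.

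Among 21 partners and regulators of NRF2, which do not include the members, 2 were called higher and 1 lower in clone 4 over WT. The shares of all genes there were 5.41% and 6.02%. In clone 5 over WT 0 were called, beside 3.51% of all genes. SQSTM1 (p62), which binds KEAP1 and carries it to autophagy, had 1577 CPM in clone 4 and 1382 in clone 5, against 1181 in WT 1 and 1210 in WT 2. Both clones were above both WT libraries, and clone 4 passed the test (log2 fold 0.40, adjusted p = 0.000738 by the edgeR quasi-likelihood test, Benjamini-Hochberg adjusted) while clone 5 did not (0.21, adjusted p = 0.101). The difference between the clones for SQSTM1 did not pass either (adjusted p = 0.111, edgeR). NFE2L3, a relative of NRF2, rose in clone 4 (log2 fold 0.35), and PALB2, a chromosome 16 gene whose product binds KEAP1, fell in clone 4 (-0.48).

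Of the 11 tested genes for glutathione and thioredoxin, 2 rose in clone 4 over WT, beside 5.41% of all genes. In clone 5 over WT 0 were called, beside 3.51%. SLC7A11, the cystine importer that feeds glutathione synthesis, had 908 CPM in clone 4 and 835 in clone 5, against 752 in WT 1 and 737 in WT 2. TXNRD1, thioredoxin reductase 1, had 4338 CPM in clone 4 and 3895 in clone 5, against 3469 in WT 1 and 3769.6 in WT 2. For both genes the clones lay above WT, and the log2 fold in clone 4 was 0.29 for SLC7A11 (adjusted p = 0.0132) and 0.26 for TXNRD1 (adjusted p = 0.0107), by the edgeR quasi-likelihood test, Benjamini-Hochberg adjusted.

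The NADPH supply list has 6 genes, on the cofactor that nocturnin acts on. In clone 4 over WT, PGD, an enzyme of the pentose phosphate pathway, rose (log2 fold 0.28, adjusted p = 0.0392) and IDH1, the cytosolic isocitrate dehydrogenase, fell (-0.41, adjusted p = 0.0118), by the edgeR quasi-likelihood test, Benjamini-Hochberg adjusted. Over all genes, 5.41% were called higher and 6.02% lower in clone 4 over WT. In clone 5 over WT, 0 of the 6 were called, beside 3.51% of all genes, with PGD at -0.27. PGD had 753 CPM in clone 4 and 511 in clone 5, against 579 in WT 1 and 657 in WT 2, so the clones lay on either side of the WT pair as they did for NQO1, in the opposite order.

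Reductases and conjugating enzymes were the target list with the most calls. Of 13 tested genes, 7 rose and 2 fell in clone 4 over WT, beside 5.41% and 6.02% of all genes. In clone 5 over WT, 0 rose and 2 fell, beside 1.78% and 1.73%. Between the clones, 8 were higher and 1 lower in clone 4 over clone 5, beside 5.73% and 7.38%. The median log2 fold between the clones was 0.698. AKR1C2, an aldo-keto reductase that reduces steroids and reactive carbonyls, had 1183 CPM in clone 4 and 437 in clone 5, against 825 in WT 1 and 794 in WT 2. Clone 4 was above both WT libraries and clone 5 below both. The reads of AKR1C2 may be shared with its near-identical relative AKR1C1, so its level is uncertain. The genes that rose in clone 4 over WT include AKR1C1, AKR1C2 and AKR1C3 on chromosome 10, and AKR1B1 and AKR1B10 on chromosome 7. These relatives are also among the genes higher in clone 4 over clone 5, so neither count is one of unrelated genes. CYP4F11, a fatty acid hydroxylase, had 118 CPM in clone 4 and 49.5 in clone 5, against 42 in WT 1 and 41.4 in WT 2, and its log2 fold in clone 4 was 1.51. AKR1B1, aldose reductase, rose by 0.86 on the log2 scale in clone 4 and stood at -0.04 in clone 5. ALDH3A1, an aldehyde dehydrogenase named after its values were seen, fell in clone 4, with 8.82 CPM in clone 4 and 26.7 in clone 5, against 20.2 in WT 1 and 23.5 in WT 2. In clone 4 over WT, then, ALDH3A1 (log2 fold -1.31) and UGDH (-0.26) of this list fell. AKR1C2, AKR1B1 and CYP4F11 were among those that rose, as SRXN1 did. NQO1 was lower there too, at the level of its chromosome.

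The list of 8 other targets had 0 genes called in either clone over WT. Of 8 efflux transporters related to ABCC2, ABCC4 rose in clone 4 over WT (log2 fold 0.30) and ABCC3 rose in clone 5 over WT (0.44). The shares of all genes called higher were 5.41% in clone 4 over WT and 1.78% in clone 5 over WT. ABCC3, which exports conjugates as ABCC2 does, had 139 CPM in clone 4 and 209 in clone 5, against 149 in WT 1 and 160.1 in WT 2.

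Of 16 tested genes of iron and heme handling other than ferritin and HMOX1, 2 rose and 0 fell in clone 4 over WT. The shares of all genes there were 5.41% and 6.02%. In clone 5 over WT, 0 rose and 1 fell, beside 1.78% and 1.73% of all genes. CP, ceruloplasmin, a secreted ferroxidase, had 87.3 CPM in clone 4 and 2.84 in clone 5, against 17.4 in WT 1 and 18.7 in WT 2. Its log2 fold was 2.28 in clone 4 (adjusted p = 2.29e-08) and -2.66 in clone 5 (adjusted p = 5.86e-07), by the edgeR quasi-likelihood test, Benjamini-Hochberg adjusted. SLC40A1, ferroportin, the exporter of cellular iron and an NRF2 target, had 17.1 CPM in clone 4 and 10.0 in clone 5, against 7.49 in WT 1 and 6.98 in WT 2. The gene rose in clone 4 (log2 fold 1.24, adjusted p = 0.000364, edgeR) and stood at 0.47 in clone 5. FTL was the highest in clone 5, where CP was the lowest.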

How the data were processed

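Poly-A+ RNA from 4 A549 libraries was sequenced on an Illumina HiSeq. The authors deposited 1 table of raw read counts per gene, mapped to hg19. TopHat2 and HTSeq are named in the submitters' processing notes. Versions, annotation and strand setting: not given in the sources used here. The table has 23368 lines, and 28 with a date as symbol (0.274% of the counts) were not used. Of the symbols, 19556 matched the GENCODE annotation lifted to hg19, 1907 matched through an older symbol in RefSeq and 1877 did not match; 0 columns were left aside.

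Counts were analysed with edgeR 4.0.16 in R 4.3.3 (filterByExpr with minimum count 10, minimum total 15, TMM, quasi-likelihood test, Benjamini-Hochberg adjustment at 0.05), with limma 3.58.1 and DESeq2 1.42.0 as alternatives. NOCT-KO over WT had 2 residual degrees of freedom; each clone over WT, and the clones against each other, were fitted with 3 groups and 1. Intervals cover 95%. Depth was 36873556 to 41963070 counts per library. The tests were tried on simulated data with known changes before use. Simulated log2 folds of 0.5 in size were recovered for 10.9% of changed genes in NOCT-KO over WT. The share was 38.7% in clone 4 over WT and 35.3% in clone 5 over WT. False calls made up 8.11%, 8.39% and 4.9% of the calls in these comparisons, in the same order. Sequences were read from hg19 at GENCODE canonical starts.

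The members and lists were chosen with earlier results of these data known. Named genes are the members, NOCT and, from each list, the 3 tested genes with the smallest p in each clone over WT. ALDH3A1, UGDH, AKR1C1 and AKR1B10 were added after their values were seen. Exons of NFE2L2 overlap those of AGPS and HNRNPA3, of MAFG those of SIRT7, of OSGIN1 those of MLYCD and of FTH1 those of BEST1, so these may share counts. Alternatives covered scaling, the filter, halved counts, the test, each library left out and centring on neighbouring genes.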

Additional observations from a re-analysis of the deposited data

Results flagged for a closer look

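For 3 members the change over WT differed between the clones by a direct test of clone 4 over clone 5 (edgeR quasi-likelihood test, Benjamini-Hochberg adjusted). NQO1 had a log2 fold of -0.90 (95% interval -1.08 to -0.73, adjusted p = 3.49e-06), with 1138 CPM in clone 4 and 2127 CPM in clone 5; its tested neighbours within 10 Mb on chromosome 16 had a median of -0.56, and NQO1 stood 0.34 below it. SRXN1 had a log2 fold of 0.52 (0.35 to 0.69, adjusted p = 0.000527), with 1185 CPM in clone 4 and 825 CPM in clone 5. FTL had a log2 fold of -0.23 (-0.36 to -0.09, adjusted p = 0.0242), with 9065 CPM in clone 4 and 10600.2 CPM in clone 5, and this call was lost under 4 alternatives (adjusted p between 0.0574 and 0.253). Each clone is 1 library, so variation between cultures of a clone was not measured.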

How the results depend on the processing

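Over the member results and the alternatives, 397 values kept their direction and side of the threshold or, where no test could be made, stayed within the replicate spread, 18 moved, 15 reversed, 3 gained and 7 lost a call; 14 of the 18 came from centring on neighbouring genes. No filter lowered the count of genes called to 366 in clone 4 over WT (main 1502), 29 in clone 5 over WT (main 461) and 496 in clone 4 over clone 5 (main 1723), and of members called to 1 in clone 4 and 0 in clone 5. DESeq2 called 42 genes in NOCT-KO over WT, 955 in clone 4, 294 in clone 5 and 1139 between the clones, and upper quartile scaling 217 in clone 5. Leaving out 1 library gave 0 to 1184 genes and 0 to 2 members in NOCT-KO over WT: without clone 4 363 genes were called with NQO1 (0.47) and FTL (0.37) among them, and without clone 5 1184 genes with SRXN1 (0.51) and NQO1 (-0.43) among them. SRXN1 kept its call in clone 4, and NQO1 and SRXN1 kept theirs between the clones, under every alternative with a test.

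Among tested values, those that changed sign were small apart from NQO1. In NOCT-KO over WT, leaving out 1 library gave -0.10 to 0.11 for NFE2L2 (below 0 without clone 4, and -0.08 without WT 2), -0.09 to 0.22 for KEAP1 (below 0 without WT 1), -0.43 to 0.47 for NQO1 (below 0 without clone 5), -0.02 to 0.51 for SRXN1 (below 0 without clone 4), -0.08 to 0.02 for FTH1 (0.00615 without clone 5, 0.02 without WT 1) and -0.04 to 0.00202 for ABCC2 (above 0 without clone 5); NFE2L2 was also -0.01 with upper quartile scaling. In clone 4 over WT, FTH1 was 0.00528 and ABCC2 0.00111 with RLE factors and with DESeq2, and leaving out 1 library gave -0.05 to 0.05 for FTH1 and -0.02 to 0.00947 for ABCC2, with 0.00615 and 0.00202 without clone 5. The cause was not tested. Other scalings moved the median log2 fold of all genes by -0.0213 to 0.00641. No paired analysis was possible because the WT libraries are numbered 1 and 2 and the clones 4 and 5. HMOX1 had at most 318 counts in a library, which limits its precision.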
